A study of Mus musculus with 17 samples.

Results

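The comparison described here was the effect of MCJ deficiency on the RNA of colon macrophage preparations from mice given an antibiotic and then dextran sulfate sodium (DSS), a detergent-like polysaccharide in the drinking water that injures the colon epithelium. It took 6 of the 17 libraries of the series, chosen by label alone: MCJ-deficient libraries 22, 23 and 24 (mice 8, 9 and 10) against wild-type libraries 10, 11 and 12 (mice 10, 11 and 12). All 6 mice were of strain C57BL/6(h-2b) and 8 weeks old, and mice of both genotypes had received a broad spectrum antibiotic for 7 days followed by DSS for 6 days. Within a genotype each library had its own mouse number, while number 10 occurred in both genotypes, so the p-values measured the spread between the mice of a genotype as the labels number them.

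The preparations were made by washing and collagenase type IV digestion of colon tissue. The labels named no sorting step and gave no allele or Cre line for the MCJ deficiency. Total RNA was extracted and messenger RNA libraries were sequenced, and read counts per gene were the measurement. MCJ, encoded by Dnajc15, is a small J-domain co-chaperone anchored in the mitochondrial inner membrane. It is known to bind complex I and to slow the electron transport chain, and its relatives serve the motor that pulls imported proteins into the mitochondrial matrix. In macrophages, MCJ is known to influence the release of tumour necrosis factor.

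The 6 libraries held 30645828 to 36461771 counts each. Levels are given below as counts per 1000000 counts of the library (CPM) after scaling by the trimmed mean of M-values, always in the order wild-type 10, 11, 12 and then MCJ-deficient 22, 23, 24. Transcripts of the mitochondrial genome took 38.7% to 48.4% of the counts in the wild-type libraries and 25.4% to 35.2% in the MCJ-deficient ones. Markers were also summed as CPM of the nuclear counts: the 16 macrophage markers came to 5404, 832 and 6313 against 2762, 2818 and 2456, so wild-type library 11 had the least macrophage RNA and the genotypes overlapped. The 22 colonocyte markers came to 18406, 33798 and 21504 against 19046, 15440 and 22177, above the macrophage sum in every library. In such bulk preparations, fewer cells of a type and less RNA per cell cannot be told apart. Xist had at most 9 counts in any library, and the Y-linked genes Ddx3y, Eif2s3y, Kdm5d and Uty were present in all 6.

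Library 24 held transcripts of the exocrine pancreas, the gland that secretes digestive enzymes. A list of 38 acinar cell genes took 1414409 counts there, 3.89% of the library, against 5021 to 21164 counts (0.0138% to 0.0650%) in the other 5. Amylase, which digests starch, led them: Amy2a5 had 15, 9 and 17 counts in the wild-type libraries, 20 and 11 in libraries 22 and 23, and 380386 in library 24. Ctrb1, a chymotrypsinogen, had 64292 counts in library 24 and at most 9 elsewhere. Cela2a (an elastase), Pnlip (pancreatic lipase), Cpa1 (a carboxypeptidase) and Prss2 (a trypsinogen) had 58660, 55498, 50965 and 50193 counts in library 24, and at most 19 in any other library.

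The pancreatic amylase genes are near-identical copies, and their counts could not be assigned to single copies. Amy2a2, Amy2a3 and Amy2a4 were listed with the same 380426 counts each, which could be 1 set of reads counted for each copy. With the 6 amylase copies and the list together, the pancreatic counts of library 24 came to 2555687, or 7.03% of its counts, where some reads may stand more than once. The acinar genes were not all raised there to the same degree. Bhlha15, a transcription factor of secretory cells, stood at 0.811, 0.857, 1.03, 0.328, 0.959 and 0.553 CPM, so library 24 lay within the range of the others. Klk1, a tissue kallikrein also made in the gut, stood at 114, 388 and 314 against 213, 62.9 and 662 CPM. Spink1, a trypsin inhibitor, had 770 to 2294 counts in the other 5 libraries and 3235 in library 24. Library 24 also had the fewest genes with 10 or more counts, 13212 against 14226 to 14763. Of genes with at least 50 counts in a library and over 8 times the highest level in the other 5, library 24 had 48, wild-type library 10 had 42, wild-type library 12 had 8, libraries 22 and 23 had 4 each and wild-type library 11 had 0. The most extreme genes of wild-type library 10 were immunoglobulin variable genes, led by Igkv4-50 with 1560 counts against at most 1 elsewhere. Those of library 23 were U90926, Slamf1, Nos2 and Procr. The part of the pancreatic RNA in the results below was not tested.

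**Figure D1:**
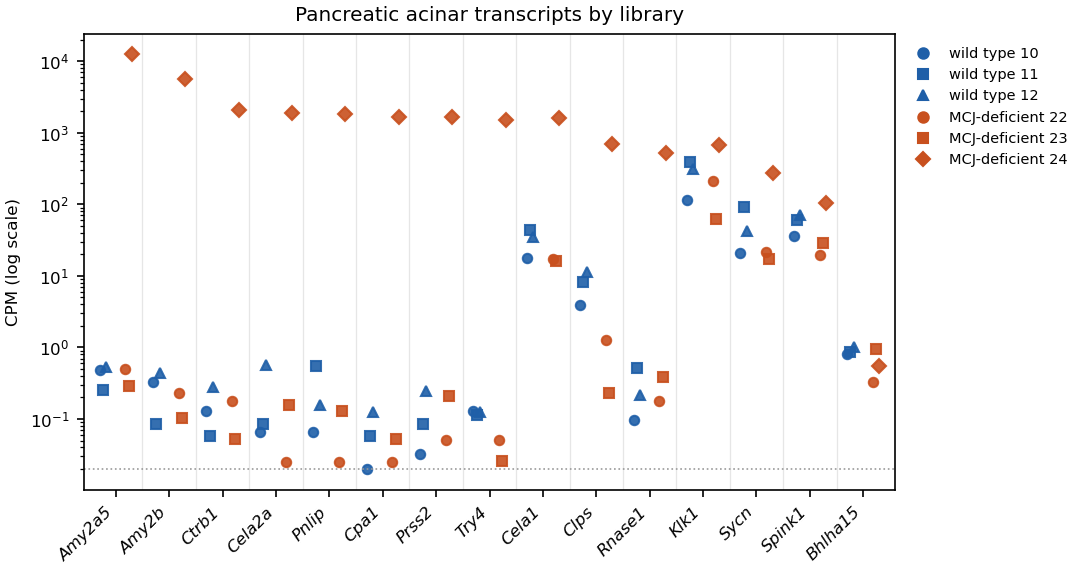
Level (CPM, log scale; values at 0 drawn on the dotted line) of pancreatic acinar genes in each of the 6 libraries. Library 24 stands far above the other 5 for the enzyme genes, while Bhlha15 and Spink1 do not set it apart to that degree.

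Dnajc15, the targeted gene (chr14:77826217-77874917, GRCm38), was at 26.8, 23.3 and 29.2 CPM in the wild-type libraries and at 0.530, 0.570 and 3.42 CPM in the MCJ-deficient ones. The groups were far apart, and library 24 kept several times more Dnajc15 RNA than libraries 22 and 23. The log2 fold change was -4.15 (SE 0.76), with an unadjusted p of 4.89e-04 and an adjusted p of 0.791 in edgeR's quasi-likelihood test with Benjamini-Hochberg adjustment over 14556 genes. Without library 24 it was -5.57 (SE 0.40), with an edgeR adjusted p of 0.00862; over the 16 alternatives the adjusted p ranged from 3.4e-06 to 1.00, and 4 called the gene. The import machinery that MCJ's relatives serve was otherwise not called. Of 16 genes of the list, Dnajc15 included, 13 had a negative and 3 a positive fold change, with a median log2 fold change of -0.24 (-0.47 without library 24, -0.13 without wild-type library 11 and -0.09 without library 22), against 49.1% negative, 50.9% positive and a median of 0.01 over all genes tested. Pam16, the motor subunit that pairs with J-domain proteins, was at 9.25, 17.7 and 13.4 against 6.11, 9.72 and 6.83 CPM, with overlap between genotypes. Hspa9, the matrix Hsp70 that drives the motor, was at 203, 248 and 167 against 176, 204 and 203 CPM. Of the 42 tested genes within 5000000 bases of Dnajc15, only Ccdc122 had an unadjusted p under 0.05 in edgeR's test (log2 fold change 1.24, SE 0.44, edgeR adjusted p = 0.938).

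With the 3 libraries of each genotype, no gene passed an adjusted p of 0.05 in edgeR's test, so the share called was 0%. At an unadjusted p under 0.05 there were 758 genes (5.21%), of which 437 (3%) were higher and 321 (2.21%) were lower in MCJ-deficient mice. All 3 MCJ-deficient libraries lay above all wild-type ones for 890 genes (6.11%) and below them for 871 (5.98%). DESeq2 on the same counts called 49 genes higher (0.337%) and 38 lower (0.261%), including 23 of the 24 genes that led either direction by p, and edgeR without library 24 called 5 higher (0.0325%) and 1 lower (0.00649%). The genes below are therefore described by their values. They were the 12 genes in each direction with the smallest p among those whose libraries did not overlap. All 24 kept their direction in every alternative in which they were tested, as their choice by lack of overlap largely ensured.

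**Figure D2:**
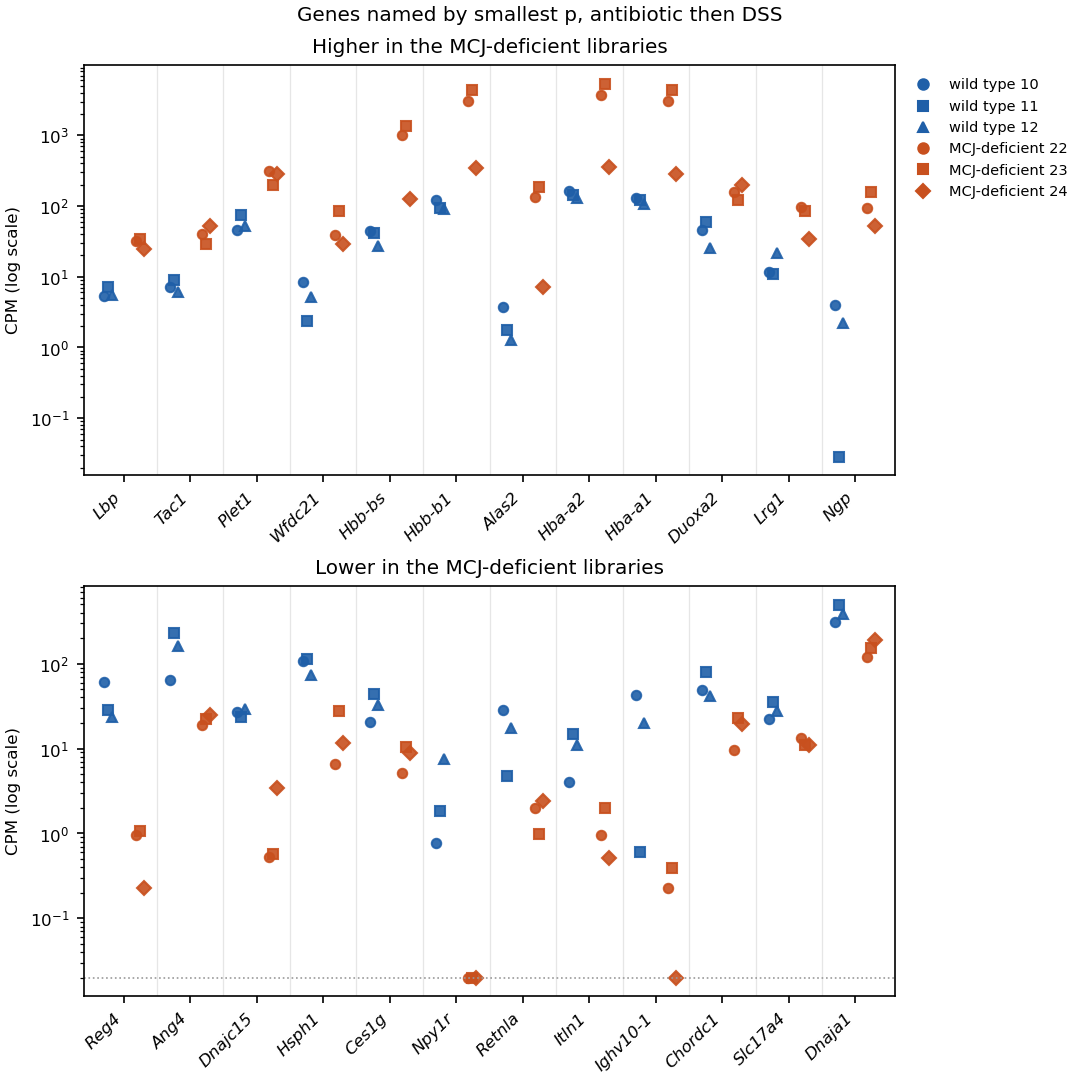
Level (CPM, log scale; values at 0 drawn on the dotted line) of the 24 genes with the smallest p and no overlap between genotypes, 12 higher and 12 lower in MCJ-deficient mice, with each point a library. Library 24 falls below libraries 22 and 23 for the globin genes and Alas2, and Npy1r is at 0 in all 3 MCJ-deficient libraries.

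Among the genes lower in MCJ-deficient mice, products of goblet and other secretory cells of the crypt stood first. These cells line the colon with mucus and antimicrobial proteins. Reg4, a secreted lectin of deep crypt secretory cells (chr3:98222138-98236748), was at 61.3, 28.6 and 23.6 CPM in wild-type mice and at 0.960, 1.06 and 0.228 CPM in MCJ-deficient mice. Every MCJ-deficient library was more than an order of magnitude under every wild-type one. The log2 fold change was -5.63 (SE 0.68, unadjusted p = 2.42e-05, edgeR adjusted p = 0.307), the smallest p of the comparison.

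Ang4, an antimicrobial ribonuclease of goblet and Paneth cells, was at 63.6, 232 and 163 against 18.8, 22.4 and 25.1 CPM. The MCJ-deficient libraries lay close together and all under the lowest wild-type one; the log2 fold change was -2.79 (SE 0.48, edgeR adjusted p = 0.791). Itln1, intelectin 1, a lectin that binds microbial sugars, was at 4.02, 15.0 and 10.9 against 0.960, 1.97 and 0.520 CPM, a log2 fold change of -3.11 (SE 0.70). Retnla, a resistin-like molecule made by alternatively activated macrophages and epithelium, was at 28.2, 4.77 and 17.5 against 2.02, 0.985 and 2.44 CPM, a log2 fold change of -3.21 (SE 0.69). For both, no MCJ-deficient library reached the lowest wild-type one.

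The general goblet cell genes did not share that separation. Muc2, the gel-forming mucin of the colon, was at 313, 641 and 462 against 989, 240 and 475 CPM. Zg16, a goblet lectin that binds Gram-positive bacteria, was at 644, 877 and 1058 against 581, 489 and 1503 CPM. Both overlapped widely between genotypes. Of 13 goblet and secretory genes, 11 had a negative and 2 a positive fold change with a median log2 fold change of -0.40. On the lower side 3 (Reg4, Ang4 and Bcas1) had an unadjusted p under 0.05 in edgeR's test, against 2.21% of all genes tested. The median was -0.72 without library 24 and -0.65 without wild-type library 10, but -0.15 without wild-type library 11 and -0.19 without library 23. Their summed level was 3944, 8760 and 7070 against 5485, 2412 and 5243 CPM of nuclear counts, so the groups overlapped, and the part of goblet cell share in the values of Reg4, Ang4 and Itln1 was not tested.

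Further genes on the lower side had other roles. Ces1g, a carboxylesterase of lipid metabolism, was at 20.3, 44.3 and 32.5 against 5.18, 10.6 and 8.81 CPM. Slc17a4, an intestinal organic anion transporter, was at 22.3, 35.0 and 27.4 against 13.2, 11.0 and 11.2 CPM, and was the only one of the 24 that DESeq2 did not call. Npy1r, a receptor for neuropeptide Y, had 24, 65 and 244 counts in the wild-type libraries and 0 in all 3 MCJ-deficient ones, at least 124-fold lower when 3 counts are set as the floor of the whole group. It thus passed the low-count filter through the wild-type libraries alone, and most of its counts were in wild-type library 12. Ighv10-1, an immunoglobulin heavy chain variable gene, was at 43.2, 0.599 and 20.04 against 0.227, 0.389 and 0 CPM, and thus near 0 in wild-type library 11 as well.

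On the higher side, the smallest p belonged to Lbp (chr2:158306493-158332852), the acute phase protein that hands bacterial lipopolysaccharide to CD14. It was at 5.29, 7.08 and 5.60 CPM in wild-type mice and at 32.0, 33.9 and 24.9 CPM in MCJ-deficient mice. Both groups were tight, and the lowest MCJ-deficient library was above 3 times the highest wild-type one. The log2 fold change was 2.34 (SE 0.31, unadjusted p = 4.72e-05, edgeR adjusted p = 0.307).

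Further secreted proteins among the named genes had a wider spread than Lbp, and edgeR called none. Lrg1, a leucine-rich glycoprotein induced in inflammation, was at 11.8, 11.0 and 21.4 against 95.5, 85.8 and 33.7 CPM. Lcn2, lipocalin 2, which binds bacterial siderophores, was at 97.4, 17.8 and 126 against 566, 2530 and 218 CPM. Saa3, a serum amyloid A protein, was at 767, 55.9 and 831 against 3064, 16720 and 1216 CPM. All 3 genes separated the genotypes, with library 23 highest for Lcn2 and Saa3 and library 24 nearest to the wild-type range for all 3. Wfdc21, a secreted protein with a whey acidic protein domain, was at 8.31, 2.37 and 5.23 against 39.5, 85.2 and 28.8 CPM (log2 fold change 3.27, SE 0.58). Hp, haptoglobin, which binds free haemoglobin, was at 290, 27.9 and 261 against 1253, 3154 and 250 CPM, so here library 24 overlapped with wild type.

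Several epithelial surface genes rank beside them. Plet1, a surface protein of migrating and regenerating epithelium and of some myeloid cells, was at 45.6, 75.0 and 52.5 against 316, 196 and 286 CPM (log2 fold change 2.20, SE 0.34, edgeR adjusted p = 0.499). Duoxa2, the maturation factor of the epithelial hydrogen peroxide producing oxidase DUOX2, was at 45.3, 59.6 and 25.9 against 158, 123 and 195 CPM (log2 fold change 1.87, SE 0.38). The oxidase gene Duox2 itself was at 12.0, 25.1 and 8.81 against 98.3, 29.9 and 30.6 CPM, with library 22 well above the rest. None of these 3 genes overlapped between genotypes. Muc1, a transmembrane mucin, was low in all libraries, at 0.746, 2.17 and 0.778 against 5.46, 2.77 and 12.0 CPM. Tac1, the precursor of substance P, was at 7.07, 8.96 and 6.07 against 40.3, 29.2 and 51.5 CPM (log2 fold change 2.45, SE 0.34, edgeR adjusted p = 0.307).

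The list of 28 tested mucosal antimicrobial and barrier genes thus held members far apart in both directions. It had 22 positive and 6 negative fold changes, with a median log2 fold change of 0.59 (1.00 without wild-type library 11). At an unadjusted p under 0.05 in edgeR's test, 9 were higher and 3 lower, against 3% and 2.21% of all genes tested. Its summed level was 22931, 34756 and 16705 against 36711, 51889 and 34977 CPM of nuclear counts, the lowest MCJ-deficient library being just above the highest wild-type one. The most abundant bactericidal lectin, Reg3b, was at 5403, 5054 and 1307 against 4564, 4598 and 8870 CPM, so it overlapped.

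Colonocyte transport genes also divided. Car4, the surface carbonic anhydrase of colonocytes, was at 64.7, 187 and 84.9 against 421, 255 and 315 CPM (log2 fold change 1.56, SE 0.44). Car1, the abundant cytosolic carbonic anhydrase, went the other way, at 4496, 5970 and 4230 against 1896, 3594 and 2727 CPM (log2 fold change -0.84, SE 0.36). Neither overlapped. Of 21 transport genes, 15 were positive and 6 negative with a median log2 fold change of 0.40; the 22 colonocyte markers were split 12 to 10 with a median of 0.17. The transport median was -0.08 without library 22, 0.18 without wild-type library 10 and 0.71 without wild-type library 11; the colonocyte median ranged from -0.03 to 0.33 with 1 library out. The summed level of the transport genes stood on the other side from their median, at 9745, 17286 and 9947 against 7267, 8152 and 7632 CPM of nuclear counts, with no overlap. On the scale of all counts used for the fold changes, that sum was 5936, 9042 and 5824 against 4635, 5732 and 5853 CPM and overlapped.

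Red blood cell transcripts stood far higher in MCJ-deficient mice, although edgeR called none with all 6 libraries. Haemoglobin is made from alpha and beta globin chains and heme, and Alas2 is the erythroid enzyme that starts heme synthesis. Hbb-bs, a beta globin, was at 44.1, 40.9 and 27.0 CPM in wild-type mice and at 1005, 1357 and 127 CPM in MCJ-deficient mice. Libraries 22 and 23 were about an order of magnitude above library 24, which was itself above all 3 wild-type libraries. The log2 fold change was 4.47 (SE 0.80, edgeR adjusted p = 0.791), and without library 24 it was 4.99 (SE 0.36, edgeR adjusted p = 0.00862; over its 15 alternatives the adjusted p ranged from 8.5e-09 to 1.00).

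Alas2 was at 3.70, 1.74 and 1.28 against 134, 187 and 7.22 CPM (log2 fold change 5.61, SE 1.10), and without library 24 its log2 fold change was 6.17 and edgeR called it. The alpha globin Hba-a2 was at 162, 145 and 130 against 3726, 5327 and 355 CPM; it and Hba-a1 are near-identical copies, as are the beta globins, and their counts are uncertain between copies. Without library 24, edgeR also called Hba-a1, Hba-a2 and Hbb-b1, with log2 fold changes of 4.96, 4.96 and 5.18. Bpgm, the red cell enzyme that makes 2,3-bisphosphoglycerate, was higher by less, at 25.9, 35.8 and 24.8 against 58.7, 57.5 and 74.0 CPM, and was highest in library 24. The red blood cell list held 12 genes, of which 3 had no row of counts and 9 were tested. Slc4a1, the anion exchanger of the red cell membrane, was at 0 in all 3 wild-type libraries and so passed the low-count filter through the MCJ-deficient ones alone. The other 8 had positive fold changes with a median of 4.45 on the log2 scale, and 7 of them did not overlap, where 6.11% of all genes did not overlap on the higher side. A second list, of erythroid regulators and membrane genes, was divided: of 20 genes 10 were tested, 5 positive and 5 negative, with a median log2 fold change of 0.14 (-0.04 without library 24 and 0.01 without wild-type library 11). The erythroid transcription factors Gata1 and Klf1 were among those that did not pass the low-count filter. The summed level of that list was 712, 1817 and 923 against 511, 672 and 955 CPM of nuclear counts, so the genotypes overlapped.

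The wider heme and iron genes were mixed in source. Fech, which inserts iron into heme, was at 21.02, 26.9 and 15.7 against 46.6, 36.3 and 46.9 CPM. Alas1, the heme synthesis enzyme of non-erythroid cells, was at 114, 57.9 and 74.8 against 153, 227 and 155 CPM. Hmox1, heme oxygenase 1, which degrades heme in macrophages, was at 162, 29.1 and 159 against 910, 896 and 120 CPM. The first 2 did not overlap, while library 24 lay within the wild-type range for Hmox1. Of 21 genes of the list, 16 were positive and 5 negative, with a median log2 fold change of 0.72 (0.45 without library 23). At an unadjusted p under 0.05 in edgeR's test, 8 were higher and 1 lower, against 3% and 2.21% of all genes tested. The lower one was Uros, uroporphyrinogen synthase, at 7.59, 10.4 and 9.27 against 2.00, 4.69 and 5.37 CPM.

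**Figure D3:**
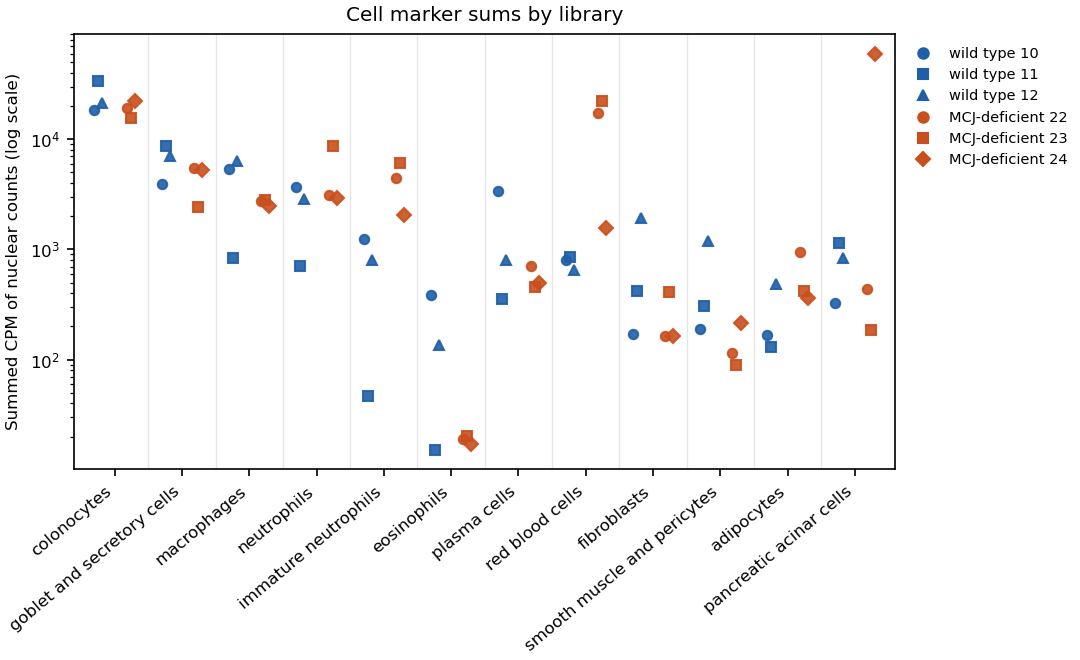
Summed level of each marker list (CPM of nuclear counts, log scale) in the 3 wild-type and 3 MCJ-deficient libraries. Red blood cell and immature neutrophil sums do not overlap between genotypes. Most of the immature neutrophil sum is Lcn2 and Chil3, which epithelium and macrophages also make. Wild-type library 11 is the lowest library for macrophage, neutrophil and eosinophil markers.

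Some granule genes of developing neutrophils stood higher in MCJ-deficient mice, although edgeR called none. Neutrophils make their granule proteins in the bone marrow, before they enter tissue. Ngp, neutrophilic granule protein, was at 3.99, 0.0285 and 2.21 CPM in wild-type mice and at 93.7, 156 and 52.1 CPM in MCJ-deficient mice (log2 fold change 5.60, SE 1.17, edgeR adjusted p = 0.938). Ltf, lactotransferrin, was at 2.14, 1.63 and 0.436 against 12.3, 8.73 and 2.73 CPM. Both genes separated the genotypes. Of the 12 genes of the immature neutrophil list 7 passed the low-count filter, and Elane, Mpo, Ctsg, Fcnb and Ms4a3 did not. All 7 had a positive fold change with a median of 2.34 on the log2 scale. Of the 7, 5 did not overlap, where 6.11% of all genes did not overlap on the higher side, while Camp and Cebpe overlapped. The list includes Lcn2 and Chil3, which epithelium and macrophages also make; Chil3, a chitinase-like protein that shares sequence with Chil4, was at 656, 4.74 and 337 against 2168, 1578 and 1307 CPM.

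Markers of mature neutrophils were less uniform. S100a8, a calprotectin chain, was at 226, 62.3 and 261 against 487, 2312 and 617 CPM, and its partner S100a9 at 260, 105 and 335 against 280, 1866 and 427 CPM. Mmp8, neutrophil collagenase, was at 59.6, 2.46 and 40.5 against 215, 350 and 171 CPM. Retnlg, a resistin-like gene of mature neutrophils, was at 750, 32.1 and 414 against 56.8, 349 and 210 CPM, and so tended to the other side. S100a8 and Mmp8 did not overlap, and library 23 was highest for S100a8, S100a9 and Mmp8. Of 12 neutrophil markers, 9 were positive and 3 negative, with a median log2 fold change of 0.78. That median was 0.37 without wild-type library 11, 0.47 without library 23 and 1.31 without wild-type library 10. Their summed level, 3696, 708 and 2888 against 3146, 8653 and 2924 CPM of nuclear counts, overlapped between genotypes.

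Several adipocyte genes stood higher in MCJ-deficient mice, although edgeR called none. Cfd, adipsin, was at 13.7, 3.88 and 21.7 against 269, 95.9 and 51.9 CPM (log2 fold change 3.41, SE 0.78). Cidec, a lipid droplet protein, was at 5.84, 4.02 and 6.32 against 38.7, 15.1 and 13.2 CPM (log2 fold change 2.05, SE 0.49). Adipoq, adiponectin, was at 1.01, 0.714 and 5.51 against 19.9, 13.3 and 6.24 CPM. None of them overlapped, and library 22 was highest for each. Of 8 genes of the list 6 passed the low-count filter, and all 6 were positive, with a median log2 fold change of 2.25, but their summed level overlapped (168, 130 and 488 against 955, 418 and 363 CPM of nuclear counts), Fabp4 being highest in wild-type library 12.

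Several cytosolic heat shock chaperones stood lower in MCJ-deficient mice, although edgeR called none. These proteins fold nascent or damaged proteins, and their genes are the textbook targets of heat shock factor 1, which binds repeats of the letters GAA and TTC in their promoters. Because several members lay on the same side, their promoters were read from RefSeq (GRCm38.p6). Each window held 300 bases, from 250 before to 50 after a listed start of the gene. A gene was counted if the window of any of its listed starts held a match. GAANNTTC or TTCNNGAA on either strand stood in 4587 of 27025 genes (17%). It stood in 8 of the 9 heat shock genes with a listed promoter, of 12 looked up. Dnajb1 was the gene without a match. The longer GAANNTTCNNGAA or TTCNNGAANNTTC, which contains the shorter motif, stood in 179 genes (0.662%) and in 4 of the 9, Hsph1, Chordc1, Hspd1 and Hspe1. Dnaja1 and Hspd1 also had listed starts whose windows held no match. A match is a description of the sequence, and no binding was measured. The 30 bases around these matches are shown because they belong to the chaperone genes that follow, with the matched letters in capitals and each read 5′ to 3′ on the strand of its gene. Chordc1 lies on the plus strand (chr9:18292260-18292289), Hsph1 on the minus strand (chr5:149636279-149636308), and Hspe1 (plus) and Hspd1 (minus) share 1 site (chr1:55088053-55088082) between their divergent starts. The Hsph1 match shown lies after the start of the gene, and the Chordc1 match begins at base -4 and runs across the start. Dnaja1, on the plus strand (chr4:40722333-40722362), held only the shorter motif.
Chordc1: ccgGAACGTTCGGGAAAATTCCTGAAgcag
Hsph1: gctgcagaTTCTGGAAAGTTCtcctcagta
Hspe1: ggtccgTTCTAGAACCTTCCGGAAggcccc
Hspd1: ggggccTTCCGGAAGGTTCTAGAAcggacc
Dnaja1: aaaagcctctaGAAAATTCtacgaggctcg

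Hsph1, the Hsp110 nucleotide exchange factor of Hsp70, was at 108, 115 and 74.2 CPM in wild-type mice and at 6.52, 27.5 and 11.8 CPM in MCJ-deficient mice. The lowest wild-type library was well above the highest MCJ-deficient one, and the log2 fold change was -2.70 (SE 0.53, edgeR adjusted p = 0.927). Chordc1, an Hsp90 co-chaperone, was at 48.6, 79.4 and 41.9 against 9.60, 22.6 and 19.3 CPM (log2 fold change -1.72, SE 0.41). Dnaja1, a J-domain partner of cytosolic Hsp70, was at 311, 494 and 382 against 120, 154 and 191 CPM (log2 fold change -1.35, SE 0.32). All 3 separated the genotypes, with wild-type library 11 highest.

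Smaller differences stood in further chaperones. Hspa8, the constitutive Hsp70, was at 2914, 3327 and 2928 against 1462, 1974 and 1744 CPM (log2 fold change -0.82, SE 0.30, unadjusted p = 0.0230). Hsp90aa1, the inducible Hsp90, was at 392, 502 and 442 against 200, 332 and 192 CPM (log2 fold change -0.89, SE 0.32). Hspe1, the mitochondrial Hsp10, was at 101, 129 and 109 against 27.3, 71.7 and 64.8 CPM (log2 fold change -1.05, SE 0.39). None of these overlapped. Hspd1, the mitochondrial Hsp60 that shares the site with Hspe1, was at 285, 404 and 225 against 80.4, 227 and 156 CPM, with library 23 just inside the wild-type range. The stress-induced Hsp70 copy Hspa1a was at 62.6, 164 and 74.0 against 10.6, 79.1 and 15.5 CPM, with library 23 again inside; it shares reads with Hspa1b. Hsp90ab1, the constitutive Hsp90, was at 567, 602 and 505 against 481, 776 and 449 CPM, and Dnajb1, an Hsp40, at 120, 167 and 110 against 155, 145 and 238 CPM, so neither set the genotypes apart.

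In the endoplasmic reticulum, where secreted proteins fold, named genes stood on both sides. Herpud1, a membrane protein of the degradation pathway there, was at 103, 94.6 and 98.8 against 366, 152 and 230 CPM (log2 fold change 1.33, SE 0.36, unadjusted p = 0.00541, edgeR adjusted p = 0.938). Hspa5, the Hsp70 of that compartment, was at 2234, 1435 and 1944 against 3755, 2852 and 2498 CPM (log2 fold change 0.70, SE 0.33). Neither overlapped. Pdia4, a disulfide isomerase, was on the lower side, at 180, 167 and 165 against 114, 125 and 118 CPM. The combined list of 25 endoplasmic reticulum and heat stress genes had 13 positive and 12 negative fold changes and a median log2 fold change of 0.03. At an unadjusted p under 0.05 in edgeR's test, 1 was higher and 6 were lower, against 3% and 2.21% of all genes tested.

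**Figure D4:**
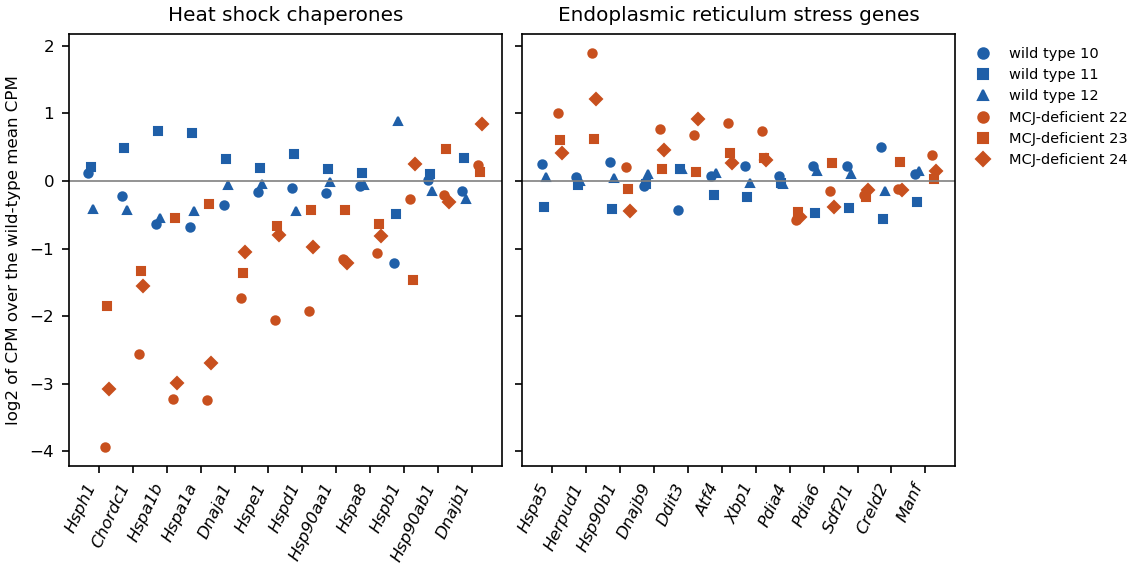
Log2 of the CPM in each of the 6 libraries over the mean CPM of the wild-type libraries, for heat shock chaperones (left) and endoplasmic reticulum stress genes (right). Hsph1, Chordc1 and Dnaja1 are lower in all 3 MCJ-deficient libraries, while Herpud1 and Hspa5 are higher in all 3.

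Respiratory chain transcripts lay on the lower side by small amounts, and none was called. Complex I takes electrons from NADH, and some of its subunits, with parts of complexes III, IV and V, are encoded in the mitochondrial genome. Of 13 protein-coding mitochondrial genes, 12 had a negative fold change, with a median log2 fold change of -0.58. mt-Nd4l, a complex I subunit, was at 4180, 4823 and 5517 against 2632, 2104 and 3289 CPM (log2 fold change -0.86, SE 0.32, unadjusted p = 0.0279). mt-Cytb, the core of complex III, was at 28650, 30230 and 37610 against 14440, 14940 and 27700 CPM (log2 fold change -0.76, SE 0.38). Library 24 was the MCJ-deficient library closest to wild type for both, and without it the median of the 13 genes was -0.93. With any other 1 library out, that median ranged from -0.72 (without wild-type library 10) to -0.43 (without wild-type library 12).

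The nuclear complex I subunits had 34 negative fold changes of 36, with a median log2 fold change of -0.24. Ndufc1, an accessory subunit, was at 43.8, 54.4 and 46.0 against 19.98, 28.1 and 36.6 CPM (log2 fold change -0.77, SE 0.30, unadjusted p = 0.0338), and Ndufs1, the largest subunit of the iron-sulfur arm, at 89.1, 107 and 96.8 against 68.1, 63.8 and 70.3 CPM. Both separated the genotypes. The nuclear subunits of complexes II to V had 34 negative of 39 and a median of -0.18; Uqcrc1, a core protein of complex III, stood on the other side, at 87.9, 112 and 75.0 against 116, 140 and 168 CPM. The medians rested on single libraries. For complex I the median was -0.53 without library 24, -0.42 without wild-type library 10, -0.08 without wild-type library 11 and -0.09 without library 22. For complexes II to V these were -0.49, -0.31, -0.03 and -0.03, and -0.11 without library 23. Wild-type library 11 had the highest colonocyte and lowest macrophage sum, and the part of that mixture in these medians was not tested. Such a sign count was not particular to the respiratory chain. Of 40 cytosolic ribosomal protein genes, 33 were negative and 7 positive, with a median of -0.09 (-0.16 without wild-type library 11). Without library 24 none of the 40 was positive and their median was -0.37.

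Glycolytic and hypoxia-response genes were nearly all on the higher side, and none was called. Glycolysis splits glucose in the cytosol, and hypoxia-inducible factors raise its enzymes when oxygen is low. Gpi1, phosphoglucose isomerase, was at 258, 227 and 230 against 363, 549 and 388 CPM (log2 fold change 0.86, SE 0.29). Eno1, an enolase, was at 372, 259 and 232 against 438, 1174 and 379 CPM (log2 fold change 1.21, SE 0.48). Ndrg1, a hypoxia-induced gene, was at 71.0, 51.5 and 82.7 against 178, 241 and 88.9 CPM. None of them overlapped, and library 23 was highest for each. Of 20 glycolysis genes 19 were positive with a median log2 fold change of 0.83, and 0.34 without library 23. Of 21 hypoxia genes 20 were positive with a median of 0.67, and 0.22 without library 23. The exception among them was Arrdc3, an arrestin-related gene, at 78.0, 54.5 and 56.4 against 46.1, 31.6 and 21.7 CPM.

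Macrophage identity genes did not shift as a group. Of 16 macrophage markers, 8 were positive and 8 negative, with a median log2 fold change of 0.03, and from -0.45 (without library 22) to 0.27 (without wild-type library 12) with 1 library out. Lyz2, lysozyme, was at 2028, 205 and 2339 against 794, 1100 and 1186 CPM, and C1qa, a complement chain of resident macrophages, at 209, 51.6 and 313 against 115, 56.8 and 140 CPM. In both, wild-type libraries 10 and 12 were highest and wild-type library 11 lowest. Marco, a scavenger receptor for bacteria, was at 0.844, 0 and 0 against 26.7, 9.54 and 1.46 CPM. Vsig4, a complement receptor of resident macrophages, was at 0.617, 1.03 and 13.2 against 0.505, 0.104 and 0 CPM. Both separated the genotypes at low counts. Of 11 MHC class II presentation genes, 10 were negative with a median of -0.35, which was 0.18 without wild-type library 10, -0.69 without wild-type library 11 and -0.53 without library 24; H2-Aa, a class II chain, was at 1974, 288 and 1468 against 673, 580 and 1124 CPM.

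Of the macrophage activation genes, 2 had their extreme value in library 23. Nos2, inducible nitric oxide synthase, was at 14.5, 3.31 and 5.57 against 63.2, 543 and 9.37 CPM, and Arg1, which competes for the same arginine, at 50.5, 4.17 and 32.7 against 94.9, 640 and 21.9 CPM. Library 23 was the highest for both by far, and library 24 lay in the wild-type range. The 16 classical activation genes had 12 positive fold changes and a median of 0.52, which was -0.02 without library 23, 0.04 without wild-type library 11 and 0.90 without wild-type library 10. The 18 alternative activation genes also had 12 positive, with a median of 0.48, which was -0.06 without library 22, 0.12 without wild-type library 11 and 0.32 without library 24, and they include Retnla on the lower side and Chil3 on the higher.

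Of 22 inflammatory cytokines, 16 were positive with a median of 0.79, which was 0.14 without wild-type library 11, 0.29 without library 23 and 1.28 without wild-type library 10. Osm, oncostatin M, a cytokine of neutrophils and macrophages that acts on stroma, was at 83.1, 13.99 and 54.9 against 191, 289 and 100 CPM (log2 fold change 1.93, SE 0.64, unadjusted p = 0.0155) and did not overlap. Tnf was at 371, 94.3 and 231 against 316, 643 and 277 CPM, Il1b at 2741, 428 and 1909 against 1680, 3387 and 1206 CPM, and Il6 at 74.1, 9.76 and 89.2 against 38.9, 73.1 and 33.0 CPM. These 3 overlapped, and wild-type library 11 was lowest for each.

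Several lists had a negative median that rested in part on 1 wild-type library. Ccr3, the eotaxin receptor of eosinophils, was at 182, 5.59 and 59.2 against 6.59, 9.44 and 11.6 CPM, so wild-type library 11 lay under all 3 MCJ-deficient ones. All 5 eosinophil genes tested were negative, with a median log2 fold change of -3.16, which was -1.83 without wild-type library 10. Jchain, the joining chain of secreted immunoglobulin A, was at 258, 7.51 and 46.6 against 17.1, 5.86 and 15.1 CPM. The 7 plasma cell genes had a median of -1.67, which was -0.37 without wild-type library 10 and -2.60 without library 24. Of the 7, 5 were negative and 2 positive. The 2 positive ones, Sdc1 and Xbp1, did not overlap, where 6.11% of all genes did not overlap on the higher side. Sdc1 was at 30.3, 31.7 and 34.4 against 88.1, 109 and 40.1 CPM (log2 fold change 1.30, SE 0.38). Postn, a matrix protein of fibroblasts, was at 9.18, 51.5 and 253 against 4.19, 8.06 and 14.2 CPM, and Rgs5, a pericyte gene, at 5.61, 3.37 and 15.2 against 1.59, 1.27 and 1.20 CPM. Wild-type library 12 was highest for both, and Rgs5 separated the genotypes while Postn did not. The 12 fibroblast genes had a median of -2.33 and the 14 smooth muscle and pericyte genes a median of -2.25. Without wild-type library 12 these medians were -0.77 and -0.95. Of the fibroblast genes, 9 were negative and 3 positive, and of the smooth muscle and pericyte genes, 13 and 1. No overlap on the lower side was seen for 1 fibroblast and 5 smooth muscle and pericyte genes, against 5.98% of all genes.

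Cell cycle genes had 33 negative fold changes of 36, with a median log2 fold change of -0.71 and none at an unadjusted p under 0.05. Pcna, the sliding clamp of DNA replication, was at 166, 142 and 142 against 87.2, 121 and 101 CPM, and Mcm2, a subunit of the replicative helicase, at 6.52, 6.65 and 4.39 against 1.47, 3.27 and 3.81 CPM. Both separated the genotypes by little. Library 23 was the MCJ-deficient library with the most cell cycle RNA, 996 CPM of nuclear counts against 377 and 428, and the median was -1.70 without it. It was -0.35 without library 22 and -0.39 without wild-type library 11.

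**Figure D5:**
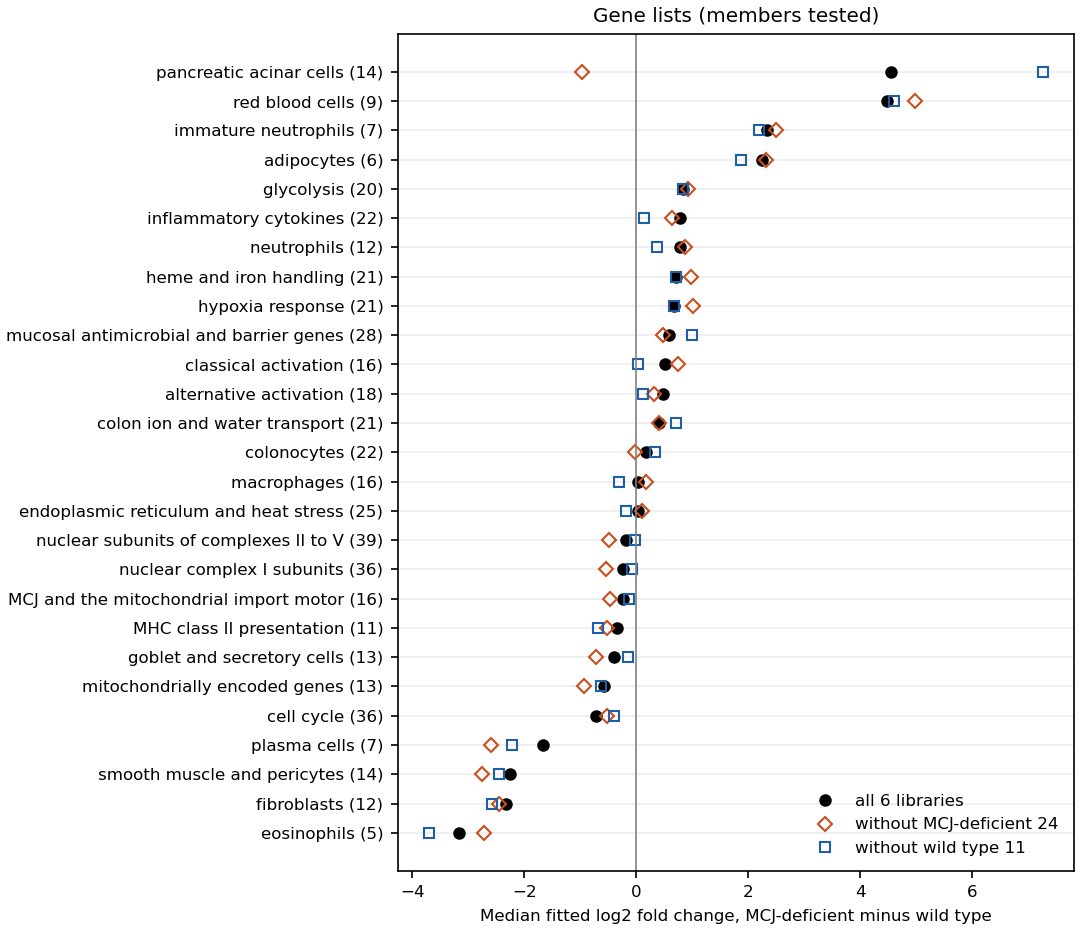
Median log2 fold change (MCJ-deficient against wild type) of each gene list, with all 6 libraries and with library 24 or wild-type library 11 left out; the vertical line is 0 and the number of tested members is in parentheses. Red blood cell genes stay above 4 in each, while the medians of the macrophage and heat stress lists lie near 0.

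The same genotype comparison in mice given DSS without antibiotic served to test what was particular to the antibiotic pretreatment, in 1 fit over all 17 libraries. No gene passed an adjusted p of 0.05 for the difference between the effects in edgeR's test (0% of 16958 genes, with 886 or 5.22% at an unadjusted p under 0.05). DESeq2 called 81 genes. The smallest edgeR adjusted p, 0.0548, belonged to Ang4. On the scale of that fit, Ang4 was at 5.58, 2.48 and 6.71 CPM in wild-type and 10.2, 25.3 and 69.5 CPM in MCJ-deficient mice given DSS alone, a log2 fold change of 2.83, against -2.81 after antibiotic, a difference of -5.63 (SE 0.84). Every MCJ-deficient mouse was above every wild-type mouse with DSS alone, and under every wild-type mouse after antibiotic. The difference was called without wild-type library 10, without wild-type library 11 or without library 24 in edgeR. It was not called without wild-type library 12, library 22 or library 23.

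For Hbb-b1, a beta globin, the log2 fold change was -0.59 with DSS alone and 4.65 after antibiotic, a difference of 5.24 (SE 0.83, edgeR adjusted p = 0.0626). That difference was called in edgeR without library 24 and without wild-type library 11, and with no other library left out alone. Library 24 was the MCJ-deficient library nearest to wild type for this gene. With DSS alone its level was at 33.0, 17.1 and 24.7 against 21.5, 18.0 and 10.1 CPM, so the genotypes overlapped there. Cd177, a surface protein of neutrophils and epithelium, was at 26.3, 35.7 and 40.7 against 12.7, 15.9 and 13.4 CPM with DSS alone, and at 9.91, 25.0 and 12.3 against 60.9, 74.9 and 39.7 CPM after antibiotic. Its genotypes separated in opposite directions, with log2 fold changes of -1.29 and 1.89 (edgeR adjusted p of the difference = 0.0876). In edgeR the difference was called without library 24 and without wild-type library 11, and with no other library left out alone. After antibiotic, these were the libraries of each genotype nearest to the other genotype. Ccr3 had log2 fold changes of 4.14 and -3.18 and Alox15, a lipoxygenase of eosinophils and resident macrophages, of 4.53 and -2.83 (edgeR adjusted p = 0.0876 and 0.0967). In edgeR both differences were called without wild-type library 11, the library with the least macrophage RNA, and with no other library left out alone. Wild-type library 11 was also the lowest wild-type library for both genes after antibiotic, so leaving it out widened the differences.

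Adgre1, which encodes the macrophage surface receptor F4/80, moved with them. It was at 1.55, 2.61 and 1.14 against 7.79, 42.0 and 25.8 CPM with DSS alone, where the MCJ-deficient mice were all higher, and at 166, 18.3 and 117 against 63.1, 85.3 and 42.4 CPM after antibiotic, where the genotypes overlapped. The log2 fold changes were 3.83 and -0.66 (edgeR adjusted p of the difference = 0.190). In edgeR this difference too was called without wild-type library 11, its lowest wild-type library after antibiotic, and with no other library left out alone. The part of macrophage RNA in the differences of Ccr3 and Alox15 was not tested.

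Reg4 overlapped with DSS alone, at 81.7, 67.4 and 18.7 against 10.2, 18.4 and 60.0 CPM, and its difference of -4.73 (SE 0.95) had an edgeR adjusted p of 0.122. Dnajc15 had log2 fold changes of -4.19 with DSS alone and -4.18 after antibiotic, a difference of 0.01 (SE 0.81). For the chaperones the difference was -1.39 (SE 0.64) for Hsph1 and -1.06 (SE 0.48) for Chordc1, neither called, and both had negative fold changes in either treatment.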

How the data were processed

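RNA-seq libraries of 6 colon macrophage preparations were analysed, 3 per genotype; the 11 other libraries entered only the test of the difference from DSS without antibiotic. The authors deposited raw read counts per gene. Per the submitters' processing notes, CASAVA 1.8.2, FastQC, Trim Galore, STAR 2.5.4 and DESeq2 were used with genome mm10; the counting tool, its annotation and its use of strand are not given in the sources used here. Of 27179 gene identifiers, 25275 were named from RefSeq, 18 from GENCODE M21, and 1886 stayed unnamed. The unnamed genes took 1.57%, 1.39% and 1.57% of counts in wild-type libraries 10, 11 and 12. In MCJ-deficient libraries 22, 23 and 24 they took 3.27%, 1.84% and 4.53%, with no overlap, and the naming rule left them out. Of 1015 list symbols, 1011 were matched.

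Counts were tested with edgeR 4.0.16 in R 4.3.3 (filterByExpr, trimmed mean of M-values scaling, quasi-likelihood test, Benjamini-Hochberg adjustment, threshold 0.05), fitted within the 6 libraries; standard errors are the log2 fold change divided by the square root of F. The test was checked on simulated data. Lists were described by counts and medians, with no test of the list. The comparison, the gene lists and the naming rule were chosen with earlier results of these data known. Named were Dnajc15 and its import motor list, the 12 genes per direction with the smallest p, at least 50 mean normalized counts and no overlap, up to 4 members per direction and the most abundant members of each list, genes specific to 1 library, and the 5 genes per direction with the smallest p of the difference. Duox2, Hmox1, Bpgm, Slc4a1 and, among the chaperones, Hspd1, Hspa1a, Dnajb1 and Pdia4 were chosen after their values were seen. Alternatives were DESeq2 1.42.0, limma 3.58.1 with voom quality weights, other scalings and filters, genes left out and libraries left out. Promoter sequences are from RefSeq (GRCm38.p6). Python 3.11.15, pandas 2.3.3 and matplotlib 3.10.9 were used. Intervals between mice rest on 3 per group, at 30645828 to 36461771 counts per library.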

Additional observations from a re-analysis of the deposited data

How the results depend on the processing

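No paired analysis was possible because the wild-type and MCJ-deficient libraries share no replicate number. All 24 leading genes kept their direction in every alternative that tested them, which their choice by lack of overlap largely ensured. Against 0 and 0, the counts called higher and lower were 49 and 38 with DESeq2, 5 and 3 with all 17 libraries, 0 and 1 with no low-count filter, and 6 and 2 without library 24 and wild-type library 11. Leaving out single libraries gave 0 to 5 higher and 0 to 1 lower, the upper ends without library 24. Dnajc15 was called in 4 alternatives, at -4.14 (DESeq2), -4.18 (17 libraries), -5.66 (both libraries out) and -5.57 (without library 24), and ranged from -5.57 to -3.78 with 1 library out. The difference from DSS alone had 81 genes called with DESeq2 and 0 to 29 with 1 library out, the most without wild-type library 11.

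Of list medians (log2), immature neutrophils moved from 2.34 to 4.20 with no filter. Endoplasmic reticulum and heat stress moved to -0.072 with the stricter filter and to -0.11 with both libraries out, and with 1 library out ranged from -0.19 to 0.10. With both libraries out, mitochondrially encoded genes were at -0.98 and plasma cells at -3.14. With any 1 library or both out, the ranges were 0.34 to 1.01 for glycolysis, -3.14 to -0.37 for plasma cells, -2.88 to -0.77 for fibroblasts, -3.07 to -0.95 for smooth muscle and -1.70 to -0.22 for cell cycle genes. The pancreatic list went to 10.55 with 17 libraries, -0.016 with voom, 11.13 with no filter, 1.02 with the stricter filter, -0.66 with both libraries out, and -0.96 to 8.81 with 1 library out. The causes were not tested.

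Some further named genes with small fold changes and overlapping genotypes took the other sign. Their log2 fold changes with 1 library or both out ranged from -0.43 to 0.67 for Muc2, -0.68 to 0.21 for Zg16, -0.21 to 0.076 for Hspa9, -0.34 to 0.23 for Hsp90ab1, -0.31 to 0.84 for Il1b and -0.75 to 0.21 for Il6. Further such values were -0.0411 for Muc2 and 0.040 for Hspa9 with voom, 0.044 for Hspa9 with both libraries out, -0.00853 for Hsp90ab1 without mitochondrial genes, and 0.0021 for Zg16 with no filter.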

Other observations

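A gene outside the lists and the naming rule, chosen after its values were seen, was Lars2, mitochondrial leucyl-tRNA synthetase. It was at 275, 162 and 416 CPM in wild-type libraries 10, 11 and 12 and at 1403, 687 and 10060 CPM in MCJ-deficient libraries 22, 23 and 24. The libraries did not overlap and library 24 was far above the rest (log2 fold change 3.83, SE 0.99, unadjusted p = 0.00425, edgeR adjusted p = 0.938). The large mitochondrial ribosomal RNA, mt-Rnr2, was at 8087, 5673 and 11510 against 3464, 4199 and 9679 CPM, and there library 24 was highest among the MCJ-deficient libraries too.

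Library 22 stood apart for serpins and angiotensinogen. Serpina3k had 1151 counts there and at most 55 in any other library, Serpina3m had 2462 against at most 225, and Agt had 1270 against at most 136. Wild-type library 12 alone held Ighe, the heavy chain of immunoglobulin E, with 185 counts against 0 in each of the other 5.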
